A study of Mus musculus with 18 samples.

Results

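The response of antigen-primed mouse CD8+ T cells to IL-15 was described by comparing the 3 arrays titled as IL-15 with the 3 titled as media control, 6 of the 18 arrays of a study of common gamma chain cytokines. All 6 samples were CD8 T cells of male OT-I mice, whose transgenic T cell receptor recognises the ovalbumin peptide SIINFEKL. The cells had been primed for 48 hours with irradiated splenocytes pulsed with that peptide, viable cells had been recovered on Ficoll, and they were then kept for 24 hours in medium alone or with IL-15 at 100 ng/ml. The other 12 arrays held cells given IL-2, IL-4, IL-7 or IL-21 in the same way. RNA of replicates 1 and 2 came from RNeasy columns, and that of replicate 3 from TRIzol followed by Direct-zol columns. All cells carried the same transgenic receptor and had seen the same peptide, and the culture was measured at a single time and dose, so the comparison describes what IL-15 added to cells that were already activated. The replicates are labelled as biological, and whether each came from a separate mouse is not stated, so the p-values measure the spread between these cultures.

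IL-15 is a growth and survival cytokine of memory CD8 T cells and natural killer cells. It signals through the IL-2 receptor beta chain and the common gamma chain, which it shares with IL-2, and is usually presented to the T cell by the IL-15 receptor alpha chain of a neighbouring cell. The beta and gamma chains recruit the kinases Jak1 and Jak3, which activate STAT5, while MAPK and PI3K signals feed growth, glucose uptake and lipid synthesis. Genes such as Cish and Socs2, which encode feedback inhibitors of this pathway, are standard STAT5 targets.

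Levels are given on the log2 scale of the array after quantile normalization of all 18 arrays, so that a difference of 1 is a doubling of the signal, and each of 18211 genes was represented by its probe set with the highest mean. Levels of different genes are not comparable, since probe sets differ in brightness. A background level of 7.23 was taken from genes of other tissues, and 8100 genes had a mean above it with media control or IL-15. The deposited medians of media control replicate 3 and IL-15 replicate 3 were 4.52 and 4.49, against 5.79 to 5.80 on the other 4 arrays of the comparison. The 3′ minus 5′ difference of the Actb control probe sets, a common measure of RNA integrity, was 0.26, 0.27 and 0.61 on the media control arrays and 0.28, 0.26 and 0.68 on the IL-15 arrays. Replicate 3 was therefore apart in both groups and within 1 pair, and each IL-15 array was set against the media control array of the same number. The 3rd pair was also the widest: the 95th percentile of the absolute difference over all genes was 0.72 in it, against 0.36 and 0.37 in pairs 1 and 2.

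The arrays carried the RNA of CD8 T cells. Cd3d lay between 13.7 and 14.0, Cd3e between 11.6 and 12.3, Cd8a between 11.2 and 12.0 and Cd8b1 between 12.0 and 12.8 on the 6 arrays. Defining markers of B cells (Ms4a1, Pax5, Cd79a), monocytes and macrophages (Cd14, Fcgr1, Adgre1), dendritic cells (Flt3, Siglech), natural killer cells (Ncr1, Klra8), CD4 T cells (Cd4, Foxp3) and red cells (Alas2) lay under the background level on all 6 arrays. The defining markers that passed it were Cd79b of B cells, between 7.28 and 7.82 and above on all 6, the macrophage lysozyme Lyz2, between 6.52 and 11.5 and above on 5, the CD4 lineage factor Zbtb7b, between 6.99 and 7.63 and above on 4, the dendritic integrin Itgax, at most 7.56 and above on 1, and the myeloid receptor Csf1r, at most 7.25 and above on 1. Of the 14 myeloid genes 3 were above background, and the mean level of the list ran from 5.46 to 6.79 with media control and from 5.13 to 6.26 with IL-15, lower with IL-15 by 0.38, 0.54 and 0.33 in the 3 pairs. The part of those myeloid transcripts in the differences that follow was not tested. In such bulk RNA, fewer cells of a type and less RNA per cell cannot be told apart.

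No gene passed an adjusted p of 0.05 for IL-15 against media control. In limma with the replicate number as a block, 0 of 18211 genes (0%) passed, and the lowest adjusted p was 0.158, shared by 11 genes. At an unadjusted p under 0.05, 767 genes (4.21%) were higher and 800 (4.39%) lower with IL-15, where 911 in all would be expected without any difference. Genes higher in all 3 pairs numbered 3291 (18.1%) and genes lower in all 3 pairs 3313 (18.2%). The fit of the RNeasy arrays alone used replicates 1 and 2 of every group, those of the other cytokines included. In it, 501 genes (2.75%) were higher and 609 (3.34%) lower at that unadjusted p. The 1567 genes at that p became 621 without IL-15 replicate 3, 972 without media control replicate 3 and 886 without replicate 1 of every group. They became 391 without the replicate block and 55 with the values as deposited. Of 111 genes followed singly, 58 differed by over 1.5 times less without replicate 3 and 6 by over 1.5 times more, with the same sign. The median half-width of the unadjusted 95% interval of a gene's difference was 0.269. That is not a limit of detection at the adjusted threshold, which even differences of 1.06 in Slc2a1 and 1.39 in Ak4 did not pass.

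The plot of all genes shows which genes lay farthest from 0 relative to their spread. The 11 genes sharing the lowest adjusted p included the glucose transporter Slc2a1, the oxygen-sensing prolyl hydroxylase Egln3, the small ankyrin-repeat protein Ankrd37, the mitochondrial protein Higd1a and the mitochondrial adenylate kinase Ak4, each of which is known to be induced when oxygen is low. The mitosis-associated gene Depdc1a and the chloride-proton exchanger Clcn3 were among them too, both higher with IL-15. The B cell surface gene Ms4a1 was lower by 0.66 in the same set, at 6.17, 5.67 and 6.18 with media control and 5.23, 5.17 and 5.64 with IL-15, but lay under background on all 6 arrays, where the size of a difference is not exact.

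**Figure D1:**
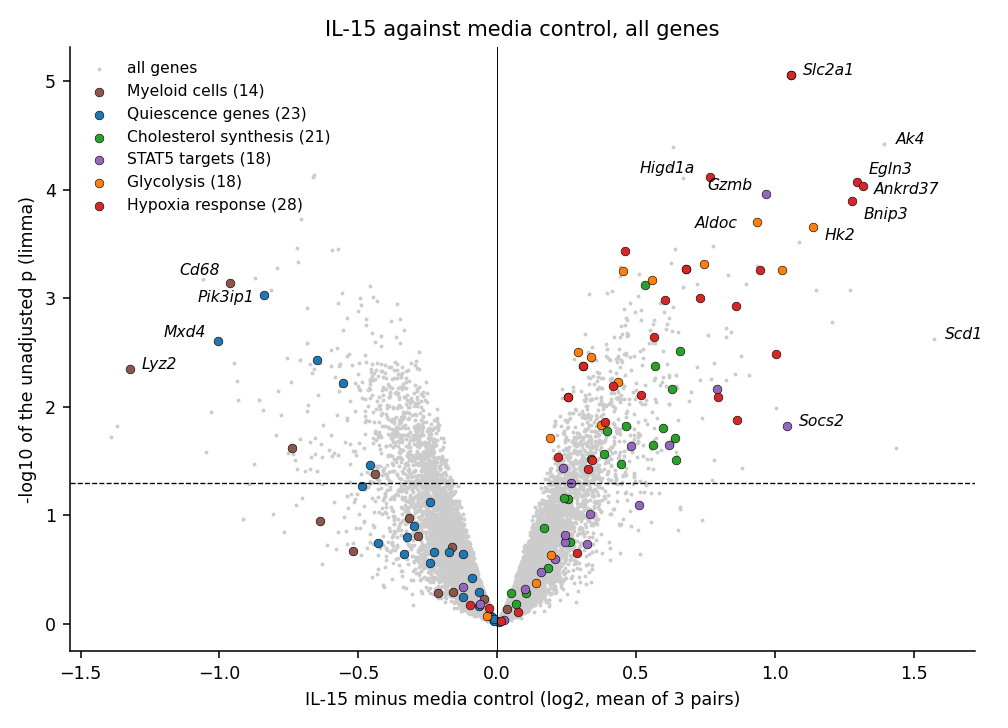
Difference between IL-15 and media control (x axis, log2) against the unadjusted p from limma (y axis, −log10) for each of 18211 genes, with members of 6 lists coloured and a dashed line at a p of 0.05. Most hypoxia and glycolysis genes lie to the right of 0 and above the line, most STAT5 targets lie to the right but under it, and quiescence and myeloid genes lie mainly to the left.

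The hypoxia response was the group of genes that stood highest. These are genes that the transcription factor HIF-1 is known to induce, in activated T cells also at normal oxygen. Of 28 members 24 were higher in all 3 pairs and 1 was lower in all 3, against 18.1% and 18.2% of all genes. At an unadjusted p under 0.05, 23 of the 28 were higher and 0 lower, against 4.21% and 4.39%. This list and those that follow were chosen with earlier results of these data known. Their shares are thus a description and not a test. Their median difference was 0.54, a fold of 1.45, with 0.47, 0.37 and 0.79 in pairs 1 to 3, beside a median of −0.01 over all genes. With the RNeasy arrays alone 19 of the 28 were higher at that p, against 2.75%. The members ran from −0.10 to 1.32, and the 1 that was lower in all pairs, the phosphofructokinase regulator Pfkfb4, was lower by 0.03.

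Slc2a1, which brings glucose into the T cell, was at 10.72, 10.46 and 9.52 with media control and at 11.46, 11.24 and 11.17 with IL-15. Every IL-15 array was above every media control array. The mean difference of the 3 pairs was 1.06 ± 0.16 (limma SE, limma adjusted p = 0.158), a fold of 2.08. The pairs gave 0.74, 0.78 and 1.65. Each SE printed with a difference is limma's, from the residual spread over all arrays of the fit. It does not measure the spread between the 3 pairs of that gene. Egln3 was at 9.74, 9.79 and 9.07 with media control and at 10.88, 10.47 and 11.13 with IL-15, again without overlap, for a difference of 1.29 ± 0.24 (limma adjusted p = 0.158). Bnip3, a mitochondrial protein of mitophagy and cell death, was at 11.47, 11.54 and 9.91 with media control and at 12.52, 12.14 and 12.09 with IL-15. Its groups did not overlap and differed by 1.28 ± 0.25 (limma adjusted p = 0.180). Media control replicate 3 was the lowest array for these genes, and pair 3 gave their largest difference, yet the difference was above 0.5 in the other pairs as well.

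Ankrd37 was at 8.82, 8.91 and 8.92 with media control and at 9.55, 9.83 and 11.21 with IL-15. All IL-15 arrays were above the media control arrays, with IL-15 replicate 3 far above the other two, and the difference was 1.32 ± 0.25 (limma adjusted p = 0.158). Higd1a, which aids respiratory complexes under low oxygen, was at 12.14, 11.76 and 11.42 against 12.78, 12.27 and 12.56, a difference of 0.77 ± 0.14. Ak4 went from 7.81, 7.46 and 6.74 with media control to 9.10, 8.25 and 8.84 with IL-15, a difference of 1.39. The arrays of both genes did not overlap between the groups. Bhlhe40, a transcription factor that oxygen lack also induces, was higher by 0.52.

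Glycolytic enzymes stood close behind. Of 18 genes of the list 15 were higher in all 3 pairs and 0 lower, against 18.1% and 18.2% of all genes, and 15 were higher at an unadjusted p under 0.05, against 4.21%. The median difference was 0.40, a fold of 1.32, and 0.40, 0.27 and 0.57 in the 3 pairs. With the RNeasy arrays alone, 12 of the 18 were higher at that p, against 2.75%. The lists of hypoxia response and glycolysis share 4 genes, Slc2a1, Tpi1, Pgk1 and Ldha, so their counts are not independent.

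Hk2, the hexokinase that carries out the entry step of glycolysis, was at 8.72, 8.54 and 7.83 with media control and at 9.58, 9.16 and 9.75 with IL-15. The groups did not overlap, and the difference was 1.14 ± 0.23 (limma adjusted p = 0.250). The aldolase gene Aldoc was at 9.28, 10.33 and 8.58 against 10.39, 10.96 and 9.65. It was higher in every pair, by 0.94 ± 0.19, although the groups overlapped because the replicates differed more from each other than the 2 conditions did. The lactate exporter Slc16a3, whose media control replicate 3 lay under background, was higher by 1.02 and the lactate dehydrogenase Ldha by 0.31.

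The promoters of 4 of these genes and of Cish are shown because the lists they belong to are defined by a transcription factor with a short known motif. They are RefSeq sequences of GRCm38.p6, 5′ to 3′ on the gene's strand, 250 bases before the start and 50 after it. In the hypoxia genes capitals mark ACGTG, the core that HIF-1 is known to bind, on either strand. In Cish they mark TTCNNNGAA, the core of STAT5, alone, and the ACGTG cores that its sequence also holds on the other strand are left in lower case. Slc2a1 is at chr4:119108495-119108794 on the plus strand, Egln3 at chr12:54203825-54204124, Bnip3 at chr7:138909457-138909756 and Ankrd37 at chr8:45999801-46000100, all on the minus strand, and Cish at chr9:107296409-107296708 on the plus strand.
Slc2a1: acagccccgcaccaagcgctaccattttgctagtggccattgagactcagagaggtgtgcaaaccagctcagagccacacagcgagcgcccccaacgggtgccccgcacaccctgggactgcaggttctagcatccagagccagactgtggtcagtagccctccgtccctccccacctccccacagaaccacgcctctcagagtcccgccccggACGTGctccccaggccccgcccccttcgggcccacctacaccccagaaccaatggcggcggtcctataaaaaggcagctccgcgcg
Egln3: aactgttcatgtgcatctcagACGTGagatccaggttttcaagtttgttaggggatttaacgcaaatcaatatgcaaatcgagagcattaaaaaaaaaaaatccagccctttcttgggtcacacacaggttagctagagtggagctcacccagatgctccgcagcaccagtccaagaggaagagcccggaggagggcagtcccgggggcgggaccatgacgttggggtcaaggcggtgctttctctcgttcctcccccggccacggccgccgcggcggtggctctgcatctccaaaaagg
Bnip3: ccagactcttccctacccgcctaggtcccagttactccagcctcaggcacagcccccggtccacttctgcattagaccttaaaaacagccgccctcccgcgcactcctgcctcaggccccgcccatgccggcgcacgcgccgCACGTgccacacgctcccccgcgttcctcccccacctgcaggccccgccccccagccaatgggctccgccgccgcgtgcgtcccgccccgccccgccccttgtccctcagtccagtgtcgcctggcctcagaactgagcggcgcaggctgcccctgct
Ankrd37: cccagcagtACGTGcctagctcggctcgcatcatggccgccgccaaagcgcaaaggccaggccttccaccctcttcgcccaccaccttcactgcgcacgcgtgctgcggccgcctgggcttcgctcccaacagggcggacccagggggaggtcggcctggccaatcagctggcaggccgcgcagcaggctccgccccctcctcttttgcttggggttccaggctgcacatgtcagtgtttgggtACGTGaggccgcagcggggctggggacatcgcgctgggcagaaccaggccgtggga
Cish: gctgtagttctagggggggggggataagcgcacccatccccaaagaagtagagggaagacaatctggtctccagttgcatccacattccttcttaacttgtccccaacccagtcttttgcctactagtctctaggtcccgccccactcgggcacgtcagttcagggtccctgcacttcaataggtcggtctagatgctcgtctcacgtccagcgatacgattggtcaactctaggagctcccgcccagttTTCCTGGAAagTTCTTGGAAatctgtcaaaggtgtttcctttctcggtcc
ACGTG, which the longer motif CACGTG also contains, was in 17 of 26 hypoxia promoters (65.4%) and 10 of 17 glycolysis promoters (58.8%), beside 5315 of 27025 promoters of all genes (19.7%). It was in 3 of 16 cholesterol synthesis promoters (18.8%) and 2 of 14 STAT5 target promoters (14.3%). TTCNNNGAA was in 4 of 14 STAT5 target promoters (28.6%) and in 0 hypoxia and 0 glycolysis promoters, beside 2288 of all promoters (8.47%). A match is a description of the letters in this window and was not measured as binding.

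Lipid synthesis followed the same direction. Sterol-responsive transcription factors are known to switch on the genes of cholesterol synthesis together. Of 21 such genes 17 were higher and 0 lower in all 3 pairs, against 18.1% and 18.2% of all genes. At an unadjusted p under 0.05, 13 were higher, against 4.21%. The median difference was 0.39, with 0.20, 0.29 and 0.81 in the 3 pairs. With the RNeasy arrays alone 4 of the 21 were higher at that p, against 2.75%. Hmgcs1, the synthase ahead of the rate-limiting reductase, was at 11.30, 10.98 and 11.09 with media control and at 11.63, 11.47 and 11.96 with IL-15. The groups did not overlap and differed by 0.57 ± 0.17. Insig1, which retains the sterol sensor in the endoplasmic reticulum, was higher by 0.53 ± 0.13 (limma adjusted p = 0.310), the sterol demethylase Cyp51 by 0.66 and the isomerase Idi1 by 0.63.

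Of 14 genes of fatty acid synthesis and desaturation, 10 were higher and 3 lower in all 3 pairs, against 18.1% and 18.2% of all genes. At that unadjusted p 5 were higher and 1 lower, against 4.21% and 4.39%, 3 were higher with the RNeasy arrays alone, and the median was 0.14. The desaturase Scd1 had the largest difference of the list, from 7.03, 6.48 and 7.14 with media control to 8.06, 7.50 and 9.79 with IL-15. All IL-15 arrays were above the media control arrays, by 1.57 ± 0.43 (limma adjusted p = 0.396), though media control lay under the background level. The desaturases Fads2 and Scd2 were higher by 1.00 and 0.46, and the acyl-CoA synthetase Acsl3 by 0.65, where the media control arrays of Fads2 and Acsl3 all lay under background. Fatty acid oxidation did not move with synthesis: of 16 genes 2 were higher and 4 lower in all 3 pairs, with a median of −0.03. Cpt1a, which carries long-chain fatty acids into mitochondria, was the gene of that list at an unadjusted p under 0.05, at 9.78, 9.94 and 9.72 with media control and 9.44, 9.72 and 9.03 with IL-15. Its difference was −0.42, with IL-15 replicate 2 level with the lowest media control array.

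The receptor and signal genes of IL-15 itself differed little. Il2rb was at 11.48, 11.39 and 11.07 with media control and at 11.62, 11.59 and 10.96 with IL-15, a difference of 0.08 (95% interval −0.15 to 0.31). Il2rg differed by −0.18 (−0.40 to 0.04) and Il15ra, whose level of about 7.8 was near background, by −0.11 (−0.30 to 0.09). Of 17 genes of the JAK-STAT, MAPK and PI3K pathways 2 were higher and 5 lower in all 3 pairs, against 18.1% and 18.2% of all genes. Their median was −0.09. The kinase Jak1 was lower by 0.40 (limma adjusted p = 0.412) and the MAPK kinase Map2k1 higher by 0.19.

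STAT5 targets moved in the same direction but by less. Of 18 members 15 were higher in all 3 pairs and 1 lower, against 18.1% and 18.2% of all genes, yet 6 were higher at an unadjusted p under 0.05, against 4.21%, and 3 with the RNeasy arrays alone, against 2.75%. The median was 0.25, and 0.26, 0.09 and 0.39 in the 3 pairs. Bcl2, the survival gene, was at 10.13, 10.31 and 10.79 with media control and at 10.94, 10.79 and 11.88 with IL-15. IL-15 replicate 2 equalled the highest media control array to 2 decimals, and the difference was 0.79 ± 0.25 (limma adjusted p = 0.412).

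Gzmb, the granule protease by which CD8 T cells kill, was at 12.78, 12.32 and 12.19 with media control and at 13.50, 12.80 and 13.89 with IL-15. The groups did not overlap and differed by 0.97 ± 0.18 (limma adjusted p = 0.167), a fold of 1.96. The SOCS genes depended on single arrays. Cish was at 8.28, 8.32 and 7.68 against 9.28, 8.33 and 8.22, so that IL-15 replicate 1 was high and replicate 2 was level with its control, and the difference of 0.51 ± 0.27 was within the spread. Socs2 was at 7.47, 6.43 and 7.29 against 7.66, 6.70 and 9.98, where IL-15 replicate 3 made most of the difference of 1.04 ± 0.38 (limma adjusted p = 0.475). Without replicate 3 the Socs2 difference was 0.22. The high-affinity IL-2 receptor chain Il2ra was higher by 0.48 ± 0.19 and the kinase Pim1 by 0.62.

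**Figure D2:**
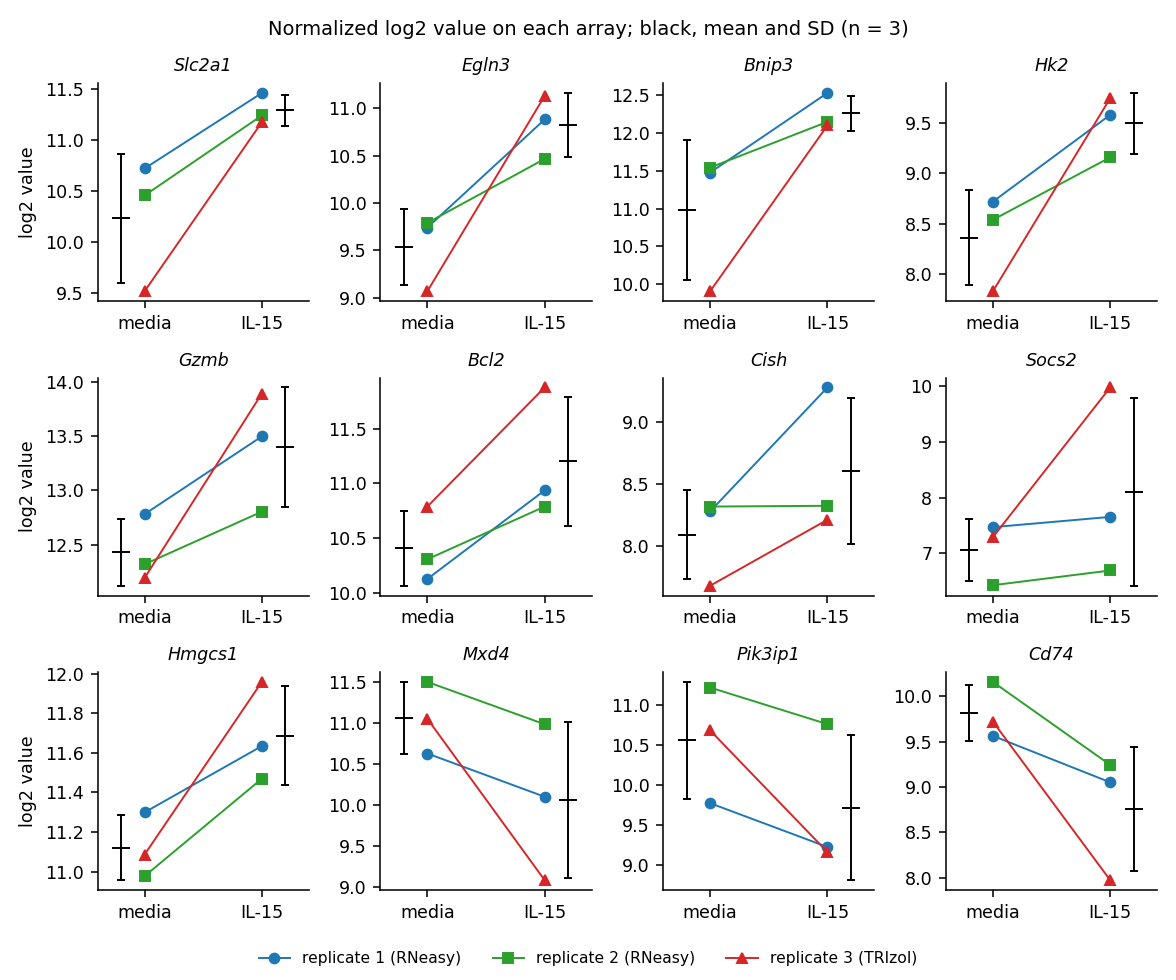
Quantile-normalized log2 level of 12 genes on the 3 media control and 3 IL-15 arrays, with a line joining the arrays of each replicate number and the mean and SD in black. Slc2a1, Egln3, Bnip3, Hk2 and Gzmb are higher with IL-15 in every pair and do not overlap, Socs2 is far higher with IL-15 in replicate 3 alone, and Mxd4, Pik3ip1 and Cd74 are lower in every pair.

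The cell cycle genes were divided. Of 24 DNA replication genes 18 were higher and 0 lower in all 3 pairs, against 18.1% and 18.2% of all genes. Their median was 0.31. At an unadjusted p under 0.05, 8 were higher, against 4.21%. With the RNeasy arrays alone 0 of the 24 were, and the median of that list was 0.13, 0.21 and 0.50 in pairs 1 to 3. Cdc6, which licenses origins of replication, was higher by 0.65 and the helicase subunit Mcm3 by 0.40. Of 24 mitosis genes 10 were higher in all 3 pairs and 0 lower, but 3 at that p, and their median was 0.11. The checkpoint kinases Bub1 and Ttk were higher by 0.39 and 0.29, and the mitotic survivin gene Birc5 by 0.20. Depdc1a was at 8.47, 8.38 and 7.67 with media control and at 8.86, 8.96 and 8.60 with IL-15, without overlap, a difference of 0.63 (limma adjusted p = 0.158).

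Most other lists of growth and metabolism had medians near 0. The median of 32 ribosome biogenesis genes was 0.12, but it was −0.02 and −0.06 in pairs 1 and 2 and 0.49 in pair 3, and 2 members, Tsr1 and Rrp1b, were higher at an unadjusted p under 0.05, by 0.36 and 0.31. The median of 25 genes of amino acid synthesis and the transcription factor ATF4 was 0.10, with 1 member higher at that p, the tRNA synthetase Eprs, by 0.42. It was 0.04 for 28 genes of mitochondrial respiration and the TCA cycle, of which cytochrome c, Cycs, was higher by 0.27 at that p. It was 0.04 for 20 genes of protein folding in the endoplasmic reticulum, of which the chaperone Hsp90b1 was higher by 0.40 and the transcription factor Xbp1 by 0.24. Of 21 genes of autophagy and the lysosome, 10 were lower and 2 higher in all 3 pairs, against 18.2% and 18.1% of all genes. Their median was −0.14, and 6 were lower at that p, against 4.39%. On the RNeasy arrays alone that count was 1 of the 21, against 3.34%. The autophagy kinase Ulk1 was lower by 0.37, the cargo receptor Sqstm1 by 0.34 and the lysosomal membrane gene Lamp1 by 0.29. Medians of 0.02 for 13 housekeeping genes and −0.01 for 33 genes of other tissues stood beside these.

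**Figure D3:**
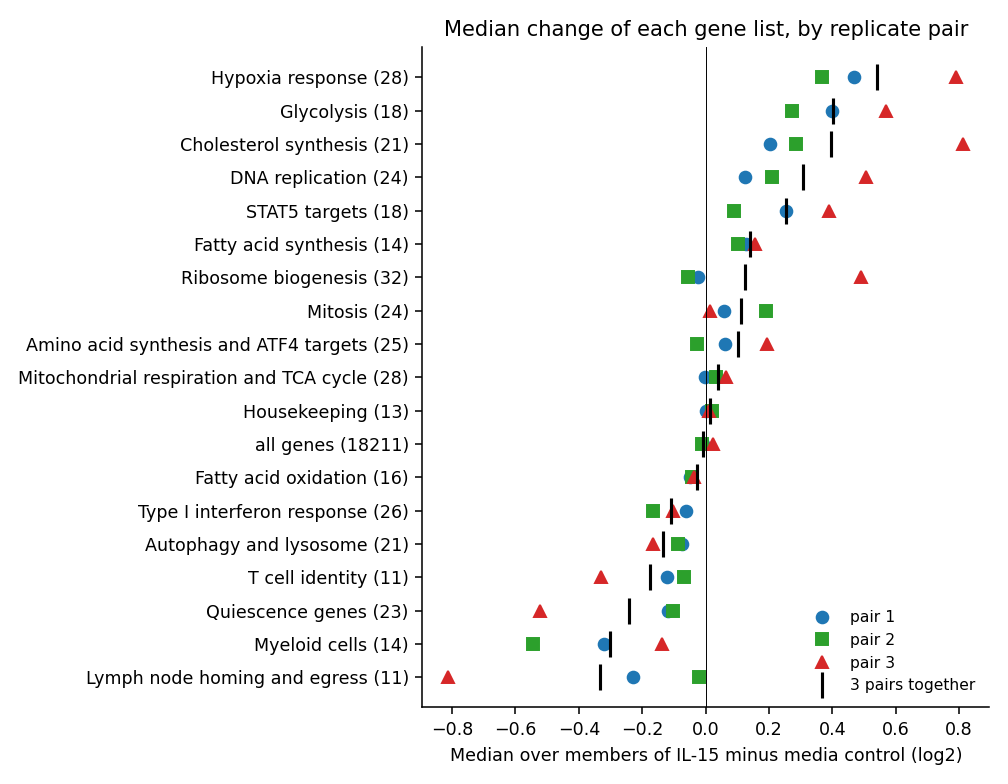
Median difference between IL-15 and media control (log2) of the genes of each list in each of the 3 replicate pairs and, as a bar, in all 3 together, for 18 lists and all genes with their numbers of genes. Hypoxia response, glycolysis and cholesterol synthesis are above 0 in every pair, homing and quiescence genes are below 0, and the 3rd pair lies farthest from 0 for most lists.

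Survival, killing and secretion were otherwise little different. The 4 pro-survival members of the BCL2 family had a median of 0.10, with Bcl2l1 higher by 0.24, the 11 pro-death members −0.05 and the 11 caspases 0.01. Of 18 cytotoxic effector genes 7 were higher and 3 lower in all 3 pairs, against 18.1% and 18.2% of all genes. At an unadjusted p under 0.05, 3 were higher and 2 lower, against 4.21% and 4.39%, and the median was 0.12. It was −0.02 over the 10 members above background. The cathepsin Ctsw was lower by 0.32. The median of 20 secreted cytokines and chemokines was 0.00, with 1 member higher at that p, whose level was under background. Ifng, the interferon of CD8 T cells, was higher by 0.44, from media control levels under background.

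Costimulatory and inhibitory receptors gave no common direction. The 15 TNF receptor family genes had a median of 0.00, and the 8 of them above background −0.08. In all 3 pairs 2 were higher and 4 lower, against 18.1% and 18.2% of all genes. Tnfrsf4 (OX40) differed by 0.11, Tnfrsf9 (4-1BB) by 0.07 and Tnfrsf18 (GITR) by 0.06, and the sign of each turned when an array or a pair was left out. Of 10 inhibitory receptors 0 were higher and 3 lower in all 3 pairs, and 3 were lower at an unadjusted p under 0.05, against 4.39%. On the RNeasy arrays 0 were lower and 1 higher, against 3.34% and 2.75%, and the Lag3 difference was −0.12. Lag3 was lower by 0.35 over the 3 pairs, Cd200 by 0.37 and Cd96 by 0.42, while Ctla4, Btla and Cd160 differed by −0.03, −0.04 and −0.07. Among 11 killer lectin-like and natural killer receptors 1 was higher and 4 were lower in all 3 pairs, and 0 passed that p in either direction. Klrd1 and Klrk1 differed by −0.29 and −0.24 and Klrc1 by 0.27.

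Transcription factors of memory and effector fate went both ways. Of 23 of them 7 were higher and 8 lower in all 3 pairs, against 18.1% and 18.2% of all genes, and 5 were higher and 3 lower at an unadjusted p under 0.05, against 4.21% and 4.39%. Id2, which favours effector cells, was higher by 0.77, while Myb and Bcl6, which favour memory, were lower by 0.72 and 0.84. Myb was at 11.76, 11.84 and 11.88 with media control and at 11.19, 11.44 and 10.70 with IL-15, without overlap. Prdm1, a repressor that drives terminal differentiation, was at 4.84, 5.24 and 5.46 against 5.79, 5.98 and 6.12, which did not overlap but lay under background throughout. The 22 early response genes of the T cell receptor had a median of −0.10 and 12 inflammatory chemokine receptors −0.08, with Cxcr5 lower by 0.78 on non-overlapping arrays. Only 3 of those 12 receptors were above background, with a median of −0.27.

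Quiescence and homing genes lay on the lower side. Of 23 genes of resting lymphocytes 12 were lower and 0 higher in all 3 pairs, against 18.2% and 18.1%, and 5 were lower at an unadjusted p under 0.05, against 4.39%, and 3 with the RNeasy arrays alone, against 3.34%. Their median was −0.24, with −0.12, −0.10 and −0.52 in the 3 pairs. Mxd4, an antagonist of Myc, was at 10.63, 11.51 and 11.06 with media control and at 10.11, 10.99 and 9.09 with IL-15, lower in each pair, by 1.01 on average. Pik3ip1, an inhibitor of PI3K, was at 9.77, 11.21 and 10.68 against 9.22, 10.76 and 9.16, lower by 0.84. In both genes pair 3 held the largest difference, and the groups overlapped. The survival receptor gene Il7r was lower by 0.46, Ypel3 by 0.65 and the antiproliferative gene Btg2 by 0.56. Among the lowest genes outside the list were the leucine zipper gene Tsc22d1, lower by 0.70 (limma adjusted p = 0.242), and the ceramide kinase Cerk, lower by 0.81.

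Of 11 genes of lymph node homing and egress 5 were lower and 1 higher in all 3 pairs, against 18.2% and 18.1% of all genes. At an unadjusted p under 0.05, 2 were lower, against 4.39%, and 1 with the RNeasy arrays alone, against 3.34%. The members ran from −1.39 to 0.41. The median was −0.33, but −0.23, −0.02 and −0.81 by pair. Itgae, the CD103 integrin chain of tissue-resident T cells, had the largest negative difference of all genes, −1.39. It was at 9.66, 11.33 and 9.89 with media control and at 8.72, 10.76 and 7.22 with IL-15. The groups overlapped because replicate 2 was high in both, and without replicate 3 the difference was −0.75. The egress receptor S1pr1 was lower by 0.70, and the integrin chains Itgb7 and Itga4 by 0.39 and 0.38. The homing receptors Ccr7 and Ccr9 differed by −0.20 and −0.33, and Ccr9 was under background on 5 of the 6 arrays.

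Myeloid genes lay lower as well, and the medians of the whole lists of other cell types were smaller. Of 14 myeloid genes 10 were lower and 0 higher in all 3 pairs, against 18.2% and 18.1% of all genes, and the median was −0.30. At an unadjusted p under 0.05, 4 were lower, against 4.39%, and 6 with the RNeasy arrays alone, against 3.34%. Lyz2 was at 8.81, 11.54 and 7.67 with media control and at 7.38, 10.17 and 6.52 with IL-15, lower in each pair but differing more between replicates than between conditions. The lysosomal macrophage gene Cd68 was lower by 0.96. Cd74, the invariant chain of antigen presentation, was at 9.56, 10.16 and 9.72 against 9.05, 9.24 and 7.97, all IL-15 arrays below all media control arrays, by 1.06 (limma adjusted p = 0.310). The class II gene H2-Aa was lower by 0.95. The medians were −0.07 for 10 dendritic cell genes, −0.12 for 13 B cell genes, 0.10 for 6 natural killer cell genes, −0.05 for 5 CD4 T cell genes and 0.01 for 6 red cell genes. Only 3 of the 10 dendritic cell genes were above background, and their median was −0.95. The 3 myeloid genes above background had a median of −0.96, so the expressed genes of both lists were lower by a similar amount. Of 26 type I interferon response genes 12 were lower and 3 higher in all 3 pairs, against 18.2% and 18.1% of all genes. Their median was −0.11, and 2 were lower at that unadjusted p, against 4.39%. Of 11 T cell identity genes 8 were lower in all 3 pairs, against 18.2%, with a median of −0.17.

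Some genes passed under other settings of the fit. With limma's array weights, which were estimated at 0.304 and 0.354 for replicate 3 of media control and IL-15 and at 5.03 for IL-15 replicate 1, 20 genes (0.11%) were higher and 5 (0.0275%) lower at an adjusted p of 0.05. Members of the hypoxia and glycolysis lists made up 8 of the 25. Slc2a1 then differed by 0.90 (limma adjusted p = 0.0149) and Egln3 by 1.19 (limma adjusted p = 0.0202). Without IL-15 replicate 2, 21 genes were higher and 3 lower. The genes that passed in both were 12 in number, Slc2a1, Egln3, Bnip3, Hk2, Higd1a, Ak4, Gzmb, Clcn3, Chac2, Prelid2 and Sap30 on the higher side and Adh1 on the lower. With equal weights and all arrays, a prior variance that follows the level let 1 gene pass, Slc2a1 (limma adjusted p = 0.0412), and the fit without that trend none.

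IL-15 was then compared directly with IL-2, which uses the same beta and gamma chains and was given at the same concentration. In the same fit IL-2 exceeded IL-15 for 2096 genes (11.5%) and lay below it for 1987 (10.9%) at an adjusted p of 0.05. These became 780 and 751 without replicate 1 of every group and 753 and 757 without replicate 2 of every group. Of the 18 STAT5 targets 15 were higher with IL-2 and 0 lower. Their median difference from media control was 0.25 with IL-15, 1.29 with IL-7 and 1.91 with IL-2, values that share the same 3 media control arrays. Of 32 ribosome biogenesis genes 30 were higher with IL-2, of 25 ATF4 and amino acid genes 22, and of 21 cholesterol synthesis genes 16. Of 23 quiescence genes 17 were lower with IL-2, and of 26 type I interferon genes 13.

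Hypoxia genes were closer. The median difference from media control was 0.54 with IL-15, 0.95 with IL-7 and 1.01 with IL-2, and 13 of the 28 were higher with IL-2 and 2 lower, Pdk1 and Rora. Of the 18 glycolysis genes 9 were higher with IL-2 and 0 lower. Slc2a1 was higher with IL-2 by 0.77 (limma adjusted p = 0.00208) and Hk2 by 1.68 (limma adjusted p = 0.000102). Ankrd37, at 9.23, 9.95 and 10.09 with IL-2, did not pass, with a difference of −0.44 and an adjusted p of 0.270 in limma. Pdk1, a kinase that inhibits pyruvate dehydrogenase, was higher by 0.39 with IL-15 and lower by 0.12 with IL-2 relative to media control. For this gene IL-2 differed from IL-15 by −0.51 (limma adjusted p = 0.0142).

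The mitosis genes gave the reverse order. Their median difference from media control was 0.11 with IL-15 and −0.11 with IL-2, and IL-2 exceeded IL-15 for 0 of the 24 and lay below it for 7, against 11.5% and 10.9% of all genes. Depdc1a was at 8.29, 8.46 and 7.83 with IL-2, below every IL-15 array, a difference of −0.61 (limma adjusted p = 0.00075), and Birc5 differed by −0.42 (limma adjusted p = 0.0019).

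Single STAT5 targets were far apart between the 2 cytokines. Cish was at 11.85, 12.15 and 10.20 with IL-2, all above the IL-15 arrays, a difference of 2.79 (limma adjusted p = 7.2e-06). Il2ra was at 11.89, 11.36 and 11.94, higher than with IL-15 by 2.65 (limma adjusted p = 7.56e-07). The lymphotoxin gene Lta, at 7.71, 7.87 and 8.52 with media control and 7.73, 7.76 and 8.44 with IL-15, was at 11.66, 11.59 and 11.92 with IL-2. The IL-15 and media control arrays of Lta overlapped, and the IL-2 arrays exceeded those of IL-15 by 3.75 (limma adjusted p = 1.3e-09). The IL-2 arrays were also higher for Gzmb by 1.39 and for Bcl2 by 0.93, and lower for Mxd4 by 3.20, Itgae by 2.78, Pik3ip1 by 2.29 and the chemokine Xcl1 by 3.71. Relative to IL-15, the gamma chain gene Il2rg was lower with IL-2 by 0.97 (limma adjusted p = 1.23e-05).

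**Figure D4:**
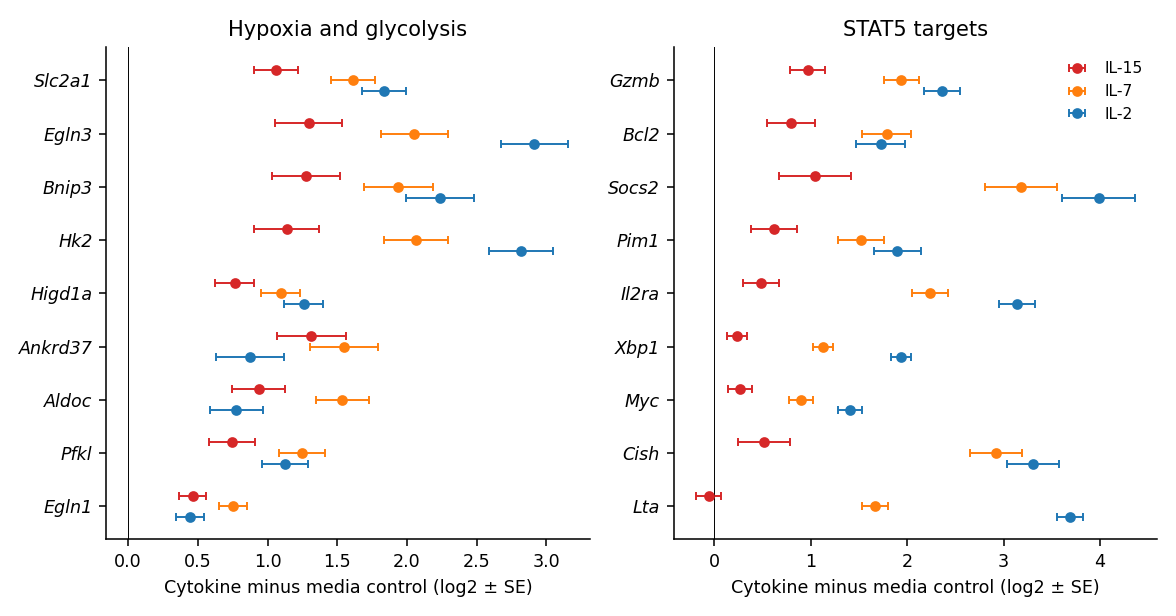
Difference from media control (log2, mean of 3 pairs ± limma SE) with IL-15, IL-7 and IL-2 for hypoxia and glycolysis genes and for STAT5 targets. The 3 cytokines share the same 3 media control arrays. The SE comes from the fit of all arrays and is not the spread between the 3 pairs. Cish is at 0.51 with IL-15 against 2.92 with IL-7 and 3.30 with IL-2, and Slc2a1 at 1.06 against 1.61 and 1.83.

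IL-7 signals through its own receptor chain and the common gamma chain. In the fit of all arrays 48 genes (0.264%) were higher and 13 (0.0714%) lower with IL-7 than with IL-15. The deposited values of IL-7 replicate 3 were on the usual scale and those of IL-15 and media control replicate 3 were not. The 3′ minus 5′ difference of Actb was 0.37, 0.68 and 0.61 on these arrays, in that order. With the RNeasy arrays alone 809 genes (4.44%) were higher and 752 (4.13%) lower with IL-7 than with IL-15. The part of the scale and of RNA integrity in these counts, and in the differences of IL-7 from media control given above, was not tested. Of 18 STAT5 targets 10 were higher with IL-7 in the fit of all arrays and 15 with the RNeasy arrays. Cish was at 11.22, 11.10 and 10.72 with IL-7, all above the IL-15 arrays, a difference of 2.41 (95% interval 1.82 to 2.99; limma adjusted p = 0.0013). Socs2, at 9.95, 9.79 and 11.00, was higher than with IL-15 by 2.14 (limma adjusted p = 0.0305), and Il2ra, at 10.76, 10.73 and 11.00, by 1.76 (limma adjusted p = 0.00126).

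Of the 28 hypoxia genes 0 passed for IL-7 against IL-15 with all arrays and 7 were higher with the RNeasy arrays alone. Slc2a1, at 12.06, 12.13 and 11.34 with IL-7, differed by 0.55 (0.22 to 0.89; limma adjusted p = 0.132). Egln3, at 11.70, 12.02 and 11.04, differed by 0.76 (0.25 to 1.27; limma adjusted p = 0.161), with replicate 3 below that of IL-15 and the RNeasy replicates above. With the RNeasy arrays alone both passed, at 0.75 (limma adjusted p = 0.0141) and 1.18 (limma adjusted p = 0.00915). Gzmb, at 14.48, 14.30 and 14.32 with IL-7, was higher than with IL-15 by 0.97 (0.58 to 1.36; limma adjusted p = 0.0418). Lta was higher by 1.73 (limma adjusted p = 5.26e-05), Tnfrsf4 by 1.19 (limma adjusted p = 0.0313) and Tnfrsf18 by 0.75 (limma adjusted p = 0.0237). The interferon-inducible genes Ms4a4c and Trim12a were lower with IL-7 than with IL-15, by 0.92 and 0.90.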

How the data were processed

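RNA of 18 cultures was measured on Affymetrix mouse expression arrays. The deposited values are log2 levels per probe set that the authors made by RMA (background correction, quantile normalization, median polish) in Expression Console 1.1, after scanning with Command Console 3.1.1 per the labels. All 18 columns were quantile normalized again, since 3 columns of replicate 3 (IL-2, IL-15 and media control) lay on a lower scale for a reason not given in the sources used here.

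Of 45101 probe sets, 34958 were listed with 1 gene symbol, 932 with several and 9211 with none, and 17 more were named from the study's tables. The probe set with the highest mean stood for each of 18211 genes. The arrays hold no detection call, so a background level of 7.23 was taken, which is the 95th percentile over the mean levels of 33 tissue genes foreign to T cells, and no gene was removed.

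Comparisons used limma (version 3.58.1, R 4.3.3; lmFit and eBayes over all 18 arrays, a mean per group, replicate number as a block, 10 residual degrees of freedom, two-sided), with Benjamini-Hochberg adjustment over all genes and a threshold of 0.05. Same-numbered arrays deviated together from their group means: the lowest correlation of 45 such pairs was 0.442 and the highest of 90 differently numbered pairs 0.384. The number also marks the extraction in the methods. The fit was tested on simulated data.

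Members and the 38 gene lists were chosen with earlier results of these data known. Named genes were the receptor chains, leading signal genes and STAT5 targets, the 10 highest and 10 lowest t statistics with 3 pairs of one sign above background, up to 4 members per list with the lowest p, genes the study names for these cytokines, and the 5 highest and 5 lowest differences passing between cytokines. Not every gene taken by the rule is reported here, and other named genes were chosen after their values were seen. Alternatives varied the normalization, the block, the probe set rule, the background filter, the variance prior, the array weights and each array. Promoters are RefSeq sequences of GRCm38.p6. Python 3.11.15 with pandas 2.3.3 and matplotlib 3.10.9 drew the figures.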

Additional observations from a re-analysis of the deposited data

How the results depend on the processing

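Each group had 3 arrays, many genes lay under the background level, and replicate 3 came from another extraction. The part of each in the number of genes that passed was not tested. Of 111 genes named for IL-15 against media control 103 kept their direction under every alternative, as did 29 of 29 for IL-2 against IL-15 and 22 of 23 for IL-7 against IL-15. Many of these genes were chosen for 3 pairs of one sign or a low p, which largely fixes their direction. Changing the block or the variance prior leaves a difference as it is. These counts are therefore no evidence of robustness. Of the 8 that turned, all but Ccr9, at −0.33, differed by less than the median half-width of 0.269. Without media control replicate 2, Il15ra was at 0.00027, Tnfrsf18 at −0.011 and Cd160 at 0.026. Over the arrays left out, Tnfrsf4 ran from −0.086 to 0.40, Tnfrsf9 from −0.089 to 0.30, Btla from −0.24 to 0.10, Ctla4 from −0.14 to 0.071, Ccr9 from −0.94 to 0.078 and Ankrd37 between IL-7 and IL-15 from −0.0083 to 0.58. As deposited, with all arrays or the 6 alone, Btla was at 0.0030 and Ctla4 at 0.029, and with arrays shifted to one median at 0.0085 and 0.034. The same lowest and highest values were −0.18 and 0.00027 for Il15ra, −0.011 and 0.16 for Tnfrsf18 and −0.18 and 0.026 for Cd160.

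Genes passing for IL-15 against media control numbered 0 in the fit with the replicate block. With an intensity trend 1 was higher (Slc2a1), and with array weights 20 were higher and 5 lower. Leaving out arrays gave 0 to 21 higher and 0 to 3 lower, the highest without IL-15 replicate 2. At an unadjusted p under 0.05 the count of 1567 became 391 without the replicate block, 55 as deposited, 2536 with every probe set on its own, 2525 with array weights and 621 to 2237 with arrays left out, the lowest without IL-15 replicate 3. IL-2 exceeded IL-15 for 774 genes without the replicate block, 134 as deposited, 3481 with every probe set, 3754 with array weights and 753 to 3049 with arrays left out. It lay below IL-15 for 795, 149, 3085, 3430 and 751 to 2867 in the same order. Among the fits with arrays left out, those without replicate 1 or without replicate 2 gave the lowest counts. Without IL-15 replicate 2 the counts were 1369 and 1307.

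Higher with IL-7 than with IL-15 were 2 genes without the replicate block, 14 as deposited, 28 with the mean of probe sets, 156 with genes under background left out, 131 with the trend, 2141 with array weights and 0 to 809 with arrays left out. Lower were 0, 0, 5, 86, 56, 1894 and 0 to 752 in the same order, and 8 with arrays shifted to one median. Without replicate 3 these were 809 and 752, without IL-15 replicate 3 331 and 289, and without replicate 1 0 and 0. The direct comparison of IL-15 with IL-7 thus rested on single arrays, and the cause was not tested.

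The list counts at an unadjusted p were varied after seeing the data. As deposited, 11 hypoxia, 5 glycolysis, 0 cholesterol synthesis and 3 STAT5 target genes were higher. With arrays left out, cholesterol synthesis gave 4 to 13 and STAT5 targets 3 to 9. The list medians moved by less than the spread between pairs for these 4 lists, at 0.42 to 0.64, 0.33 to 0.51, 0.26 to 0.48 and 0.20 to 0.32 with arrays left out.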
